A study of Mus musculus with 2 samples.

Results

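The FoxO genes of hematopoietic stem and progenitor cells and 4 of their known targets were followed through the first weeks of BCR/ABL (BA) expression. The genes were chosen by name. They are the transcription factors Foxo1, Foxo3 and Foxo4 and the target genes Irs2, Pik3ip1, Txnip and Sesn3, which makes 7 of the 34745 genes measured. All 7 had at least 20 reads over both libraries, the limit used here for a ratio to be counted, and 12192 genes passed that limit.

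The data were RNA-seq of LSKs sorted from bone marrow (BM), the stem and progenitor fraction that lacks lineage markers and carries c-Kit and Sca1, from mice carrying the Scl/tTA and BA transgenes on a C57BL/6 background. The week-0 library came from mice kept on doxycycline, which holds BA off, and the week-3 library from mice 3 weeks after doxycycline was withdrawn. Both groups carried the same transgenes. The activator tTA is driven by regulatory sequence of the Scl gene, which is active in stem and progenitor cells, and the share of sorted cells that expressed BA was not measured in these libraries. LSKs of 3 mice were mixed into 1 library per time point, so the spread between mice is unknown, no test between the time points could be made, and every ratio compares 1 library with the other. The ages of the mice were not given in the sources used here.

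The depth was 6356164 reads on genes for week-0 and 3886695 for week-3, so that the smallest count that can be told from 0, 3 reads, was 0.472 and 0.772 CPM, which are reads scaled to a common library size. Kit and Ly6a (Sca1), the genes behind the sort, were present in both libraries, Kit with 1391 and then 580 reads and Ly6a with 434 and then 199. The 8 LSK markers summed to 2137 CPM in the first and 1157 CPM in the second. Of these markers, 5 were lower and 3 higher at week-3. Flt3 alone held 6177 of their 13585 reads at week-0 and 934 of 4497 at week-3. Where a pair of values is given without a time point, the week-0 value stands first. Markers of other cells differed between the libraries. The summed level of 7 mast cell markers was 128 CPM at week-0 against 3892 CPM at week-3, and all 7 were higher at week-3, with Tpsb2 and Mcpt4 at 0 reads at week-0. Neutrophil and monocyte markers summed to 2730 CPM at week-0 and to 10390 at week-3. Mpo and Elane held 18486 and 18391 of the 40382 reads of this sum at week-3, while Ly6g had 5 reads in each library. The 7 erythroid markers summed to 785 and 67.2 CPM and all were lower at week-3. Plasma cell markers summed to 1101 and 245 CPM, dendritic cell markers to 1130 and 351, B-lineage markers to 77.6 and 61.0, T-lineage markers to 62.6 and 31.4, and megakaryocyte markers to 134 and 201. Single genes held much of some sums. Xbp1 held 837 of the 953 plasma cell marker reads at week-3, while Jchain had 5120 and then 96 reads. Flt3, also an LSK marker, held 6177 of the 7181 dendritic cell marker reads at week-0. Itga2b held 645 of the 780 megakaryocyte marker reads at week-3, where 3 of the 5 markers were lower. In bulk RNA, fewer cells of a type and less RNA per cell cannot be told apart, and the part of these cell types in the ratios below was not tested.

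FoxO factors are the transcription factors at the end of the insulin and growth factor pathway. When receptors activate PI3K, its lipid product recruits AKT, and AKT phosphorylates FoxO factors, which leave the nucleus and stop activating their targets. In hematopoietic stem cells they are known for keeping the cells out of cycle and for protecting them from oxidative stress, and BCR/ABL is a tyrosine kinase known to activate PI3K and AKT. The amount of FoxO mRNA does not report the phosphorylation or location of the protein, neither of which was measured by RNA-seq.

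The proximal promoters of Irs2 and Txnip are shown because both genes are FoxO targets with letters of a FoxO-type motif in this window, while their mRNA levels differed in opposite directions between the libraries. Each sequence holds the 150 bases before the transcription start of the RefSeq annotation of GRCm38.p6, read 5′ to 3′ on the strand of the gene. In Txnip (chr3:96557807-96557956, + strand), capitals mark GTAAACA, the letters of the FoxO consensus, and the letters CACGAG at 2 places, which occur in carbohydrate response elements. In Irs2 (chr8:11008930-11009079, - strand), capitals mark CACGTG, the E-box, and close behind it TGTTTTG, which is the insulin response motif CAAAACA read on the opposite strand. The RefSeq start of Irs2, at 11008929, lies upstream of the start of the deposited gene model, at 11008458.
Txnip: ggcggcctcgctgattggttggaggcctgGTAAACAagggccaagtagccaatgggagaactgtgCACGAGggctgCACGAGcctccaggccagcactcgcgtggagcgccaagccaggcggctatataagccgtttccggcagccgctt
Irs2: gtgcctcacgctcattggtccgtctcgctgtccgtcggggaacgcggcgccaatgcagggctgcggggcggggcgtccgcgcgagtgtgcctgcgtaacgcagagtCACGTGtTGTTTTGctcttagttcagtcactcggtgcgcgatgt

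The 4 motifs were searched on both strands in the 250 bases before the start of 6 of the 7 genes, which were those matched in the RefSeq promoter table. Among 32851 promoters of the same length, 3.17% held GTAAACA, 5.56% CAAAACA, 6.02% CACGTG and 5.37% CACGAG. Txnip was the member with GTAAACA and Irs2 the member with CAAAACA. The windows of Foxo1, Foxo3, Sesn3 and Pik3ip1 held none of the 4. The window of Pik3ip1 lies inside the deposited gene model, which starts at 3330401, while the RefSeq start is at 3330731. A match of letters describes the window and does not show that a factor was bound.

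Of the 7 genes, 5 were lower and 2 were higher at week-3, while 46.6% of all genes with at least 20 reads were lower. Levels are given as FPKM, read counts scaled by the length of the gene model and by the depth of the library, and differences as the log2 of the week-3 FPKM over the week-0 FPKM. Intervals in parentheses are exact intervals at 95%, Clopper-Pearson for ratios between the libraries and for shares, and Poisson for FPKM. They express counting error alone and treat reads as independent. Because cDNA was amplified, its reads are not separate molecules, so the intervals may be too narrow even for counting error. The interval of the log2 ratio left out 0 for 6 of the 7 genes. The share of all genes whose interval did so is not given here, so this count is not read as a trait of the 7. None of the 7 reached a ratio of 2, where 10.6% of all genes with at least 20 reads did, and 3 were at or below a ratio of 0.5 (Foxo1, Foxo4 and Irs2), where 15.6% of all genes were. At a limit of 1.5, 1 was higher (Pik3ip1), against 23.7% of all genes, and 4 were lower, against 24.6%. The median log2 ratio of the 7 was -0.71 and that of all 12192 genes was 0.07.

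**Figure D1:**
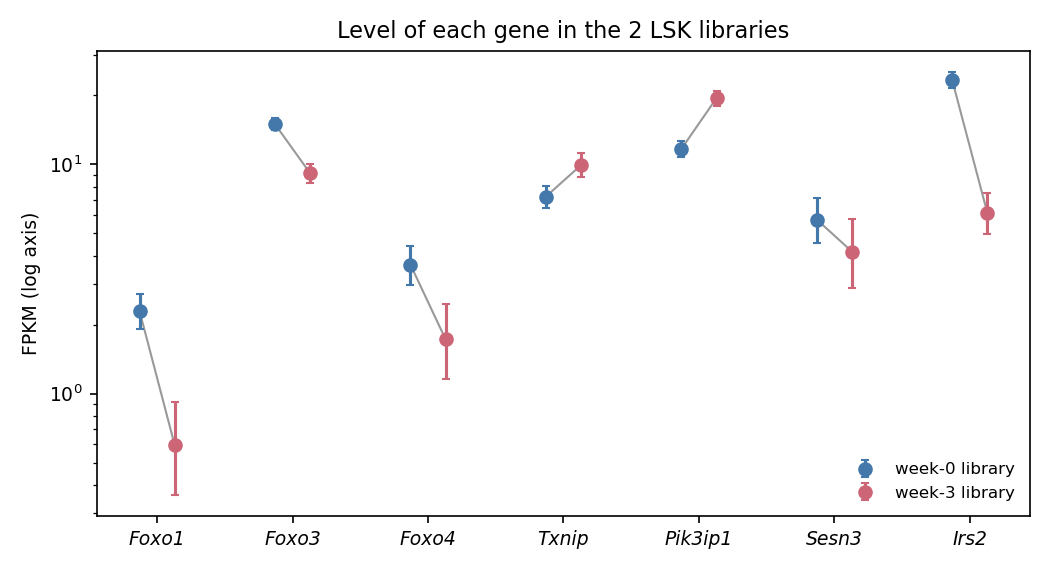
FPKM on a log axis for Foxo1, Foxo3, Foxo4, Txnip, Pik3ip1, Sesn3 and Irs2 in the week-0 library (blue) and the week-3 library (red), 1 library each; bars are 95% counting intervals. Txnip and Pik3ip1 sat higher at week-3, the other 5 sat lower, and the intervals of the 2 libraries overlapped for Sesn3.

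All 3 FoxO factors detected in LSKs were lower at week-3. Foxo3, the member best known for maintaining stem cells, was the most abundant of them. Foxo3 (ENSMUSG00000048756, chr10:42181841-42276755, - strand) at week-0 had 1066 reads and an FPKM of 15.0 (14.1 to 15.9), against 398 reads and an FPKM of 9.14 (8.26 to 10.1) at week-3. The log2 ratio was -0.71 (-0.88 to -0.54), so the week-0 level was 1.64 times the week-3 level. Its ratio was at the percentile 21.4 of all genes with at least 20 reads.

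Foxo1, the factor that mediates much of insulin's effect on transcription and that lymphocyte development also needs, had the lowest ratio of the 7. Foxo1 (ENSMUSG00000044167, chr3:52268336-52353221, + strand) at week-0 had 126 reads and an FPKM of 2.29 (1.91 to 2.72), against 20 reads and an FPKM of 0.594 (0.363 to 0.917) at week-3. The log2 ratio of Foxo1 was -1.95 (-2.71 to -1.26), and the week-0 level was 3.85 times the week-3 level, with an interval from 2.39 to 6.52 that reflects the 20 reads. Its place among the genes with reads moved from the percentile 54.0 to 30.2, and the ratio was at the percentile 6.51 of all genes with at least 20 reads.

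Foxo4, an X-linked factor that shares the DNA motif of the other two, lay between them. Foxo4 (ENSMUSG00000042903, chrX:101254528-101260873, + strand) at week-0 had 104 reads and an FPKM of 3.65 (2.98 to 4.43), against 30 reads and an FPKM of 1.72 (1.16 to 2.46) at week-3. The log2 ratio was -1.08 (-1.72 to -0.49), just past the limit of 0.5, and its interval reached across that limit. Foxo6, the remaining family member, had 1 read and then 0, which is below the limit of 3 reads at both time points.

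Summed over the 3 genes, FoxO reads went from 1296 (204 CPM) to 448 (115 CPM), a log2 ratio of -0.82 (-0.98 to -0.67). The make-up of this pool also differed. Foxo3 made up 82.3% (80.1 to 84.3) of the FoxO reads at week-0 and 88.8% (85.6 to 91.6) at week-3. Foxo1 made up 9.72% (8.16 to 11.5) at week-0 and 4.46% (2.75 to 6.81) at week-3. The share of Foxo4 was 8.02% (6.60 to 9.64) and 6.70% (4.56 to 9.42), with overlapping intervals. These shares do not depend on how the libraries were scaled. The log2 change of Foxo1 relative to Foxo3 was -1.23 (-2.01 to -0.52), that of Foxo1 relative to Foxo4 was -0.86 (-1.84 to 0.10), and that of Foxo3 relative to Foxo4 was 0.37 (-0.25 to 1.03). Foxo1 was thus lowered more than Foxo3 beyond counting error, and Foxo4 could not be told from either at this depth.

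Irs2, the adaptor that carries the signal of the insulin and IGF1 receptors to PI3K and whose transcription FoxO factors activate as feedback, was the most lowered of the targets. Irs2 (ENSMUSG00000038894, chr8:10986980-11008458, - strand) at week-0 had 598 reads and an FPKM of 23.4 (21.5 to 25.3), against 96 reads and an FPKM of 6.14 (4.97 to 7.50) at week-3. The log2 ratio was -1.93 (-2.26 to -1.62) and the week-0 level was 3.81 times the week-3 level. Irs2 and Foxo1 had nearly equal ratios, and the log2 change of Foxo1 relative to Irs2 was -0.02 (-0.84 to 0.75). The other adaptors of the family hardly appeared in LSKs, with 0 reads for Irs1 in both libraries and 2 and 0 reads for Irs4.

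Pik3ip1, a transmembrane protein that binds the catalytic subunit of PI3K and restrains it, had the highest ratio of the 7. Pik3ip1 (ENSMUSG00000034614, chr11:3330401-3342971, + strand) at week-0 had 656 reads and an FPKM of 11.7 (10.8 to 12.6), against 669 reads from the shallower library and an FPKM of 19.5 (18.0 to 21) at week-3. The log2 ratio of Pik3ip1 was 0.74 (0.58 to 0.90), 1.67 times higher at week-3. This inhibitor of PI3K and the adaptor Irs2 differed in opposite directions. The log2 change of Pik3ip1 relative to Irs2 was 2.67 (2.31 to 3.03), which does not depend on the gene lengths.

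Txnip, which binds thioredoxin and limits glucose uptake, was also higher at week-3. Txnip (ENSMUSG00000038393, chr3:96557957-96561883, + strand) at week-0 had 318 reads and an FPKM of 7.24 (6.46 to 8.08), against 267 reads and an FPKM of 9.93 (8.78 to 11.2) at week-3. The log2 ratio was 0.46 (0.22 to 0.70), or 1.37 times, which was at the percentile 70.5 of all genes. Txnip and Pik3ip1 could not be told apart in their ratios, with a log2 change of Txnip relative to Pik3ip1 of -0.28 (-0.57 to 0.01). Txnip and Foxo3 went in opposite directions, and the log2 change of Foxo3 relative to Txnip was -1.17 (-1.46 to -0.87).

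Sesn3, a sestrin that restrains mTORC1 and lowers reactive oxygen species, was the target with the smallest number of reads. Sesn3 (ENSMUSG00000032009, chr9:14276301-14326138, + strand) at week-0 had 79 reads and an FPKM of 5.75 (4.55 to 7.16), against 35 reads and an FPKM of 4.17 (2.90 to 5.79) at week-3. The log2 ratio of Sesn3 was -0.46 (-1.08 to 0.13). The interval held 0, so a difference of Sesn3 was not detectable with the reads counted for it. Of the 21 pairs among the 7 genes, the interval of the relative change left out 0 in 15, and no such count over pairs of other genes is given.

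**Figure D2:**
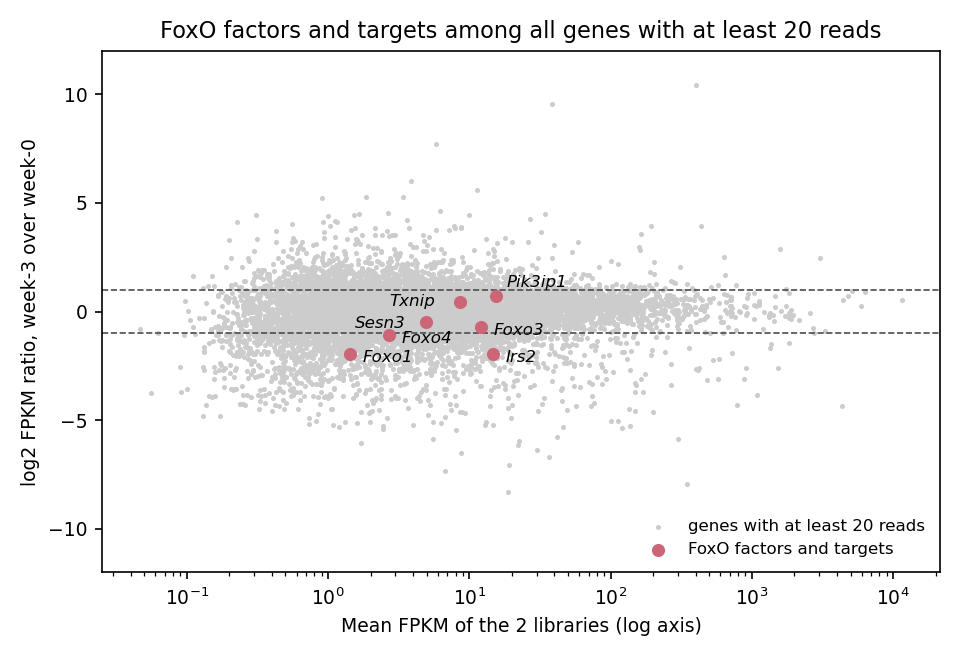
log2 of the week-3 FPKM over the week-0 FPKM against the mean FPKM of the 2 libraries (log axis); grey points are genes with at least 20 reads over both libraries and above 0 in each, red points are the FoxO factors and targets, and dashed lines are the ratios of 2 and 0.5. Foxo1 (-1.95) and Irs2 (-1.93) lay below the lower line, Foxo4 (-1.08) just under it, and none lay above the upper line.

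The order of the genes by level rests on the length used. The deposited FPKM divide by a length that, for 7461 of 11190 genes with at least 20 reads at week-0 (66.7%), equals the sum of every distinct exon of GENCODE M21, in which overlapping exons of different transcripts count repeatedly. For Txnip this length was 6915 bases, longer than the 3927 bases the gene spans, and the merged exons cover 3123 bases. Ratios between the libraries are untouched by this length. Levels divided by the merged exon length are therefore used to compare genes, with the deposited length kept for Sesn3 and Irs2, whose lengths matched neither. The deposited length of each was shorter than its merged exons, 2162 against 15269 bases for Sesn3 and 4024 against 6323 for Irs2. Reads on the remaining exon sequence may be missing from the counts of these genes.

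On this scale, Pik3ip1 (24.2), Irs2 (23.4) and Foxo3 (22.2) had the highest FPKM, against their intervals overlapped. Txnip followed at 16.0 (14.3 to 17.9). Sesn3 at 5.75 and Foxo4 at 4.70 had overlapping intervals, and Foxo1 was lowest at 2.29. At week-3 the order had changed: Pik3ip1 was at 40.3 (37.3 to 43.5), Txnip at 22 (19.4 to 24.8), Foxo3 at 13.5 (12.2 to 14.9) and Irs2 at 6.14 (4.97 to 7.50). Sesn3 at 4.17 overlapped with Irs2 above it and with Foxo4 at 2.21 below it, and Foxo1 was again lowest at 0.594. With its deposited length kept, Irs2 stood beside Pik3ip1 at week-0 and below Txnip and Foxo3 at week-3. Its merged exons are longer, so its place at week-0 rests on the length kept. The place of Foxo1 below Sesn3 rests on the length kept for Sesn3. Free of any length, the log2 changes of Txnip and Foxo3 relative to Irs2 were 2.39 (1.99 to 2.79) and 1.22 (0.86 to 1.59). Per merged exon length, Foxo3 made up 76.0% of the summed FoxO level at week-0 and 82.8% at week-3.

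The kit does not mark the strand, so reads of antisense genes whose exons overlap cannot be told from those of Foxo1, Txnip, Pik3ip1 and Irs2. The annotated antisense genes had few reads of their own. Gm15441, antisense to Txnip, had 11 and 5 reads, Gm12592, antisense to Pik3ip1, had 9 and 5, and those antisense to Foxo1 and Irs2 had 0 in both libraries.

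Receptors and adaptors for insulin and growth factors were more often lower than higher. Of 12 receptors and adaptors with at least 20 reads, 1 (8.33%) was at or above a ratio of 2, against 10.6% of all genes. At or below 0.5 were 5 (41.7%), against 15.6% of all genes, and the median log2 ratio was -0.66. The 5 include Irs2, itself a chosen gene, and Igf2r. Flt3, the receptor of early lymphoid and dendritic progenitors, had an FPKM of 157 at week-0 and 38.9 at week-3, a log2 ratio of -2.02 (-2.12 to -1.92). Igf2r, which binds IGF2 and mannose-6-phosphate, had 61 and 7 reads and a log2 ratio of -2.41 (-3.79 to -1.28). The receptor higher past the limit, Csf2rb, the shared chain of the IL-3 and GM-CSF receptors, is named here after its value was seen, with 298 and 665 reads and a log2 ratio of 1.87 (1.67 to 2.07).

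PI3K itself showed small ratios in the catalytic subunits that Pik3ip1 acts on. The log2 ratio was 0.49 (0.07 to 0.91) for Pik3ca, 0.45 (0.27 to 0.63) for Pik3cd, -0.36 (-1.18 to 0.42) for Pik3cb and -0.26 (-0.56 to 0.03) for Pik3cg. The regulatory subunits of the gamma complex stood apart from these, with log2 ratios of 2.18 (1.35 to 3.07) for Pik3r6, from 17 and 47 reads, and 1.20 (0.62 to 1.80) for Pik3r5, from 44 and 62 reads. Pik3ap1, the adaptor BCAP that links receptors of B and myeloid cells to PI3K, had 555 and 53 reads and a log2 ratio of -2.68 (-3.11 to -2.27), and Pik3r4, of the class III complex, had -0.87 (-1.23 to -0.52). Of the 13 genes in this list with at least 20 reads, 2 (15.4%) were higher and 1 (7.69%) was lower past the limits. These shares were 10.6% and 15.6% over all genes. The lower one was the adaptor Pik3ap1, and no PI3K subunit with at least 20 reads was lower past the limit. The median of the list was -0.26.

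Pik3ip1 differed in direction from much of its own group, the 11 brakes on PI3K and AKT, which had a median of -0.64. Of these, 4 (36.4%) were at or below a ratio of 0.5, against 15.6% of all genes, and 0 at or above 2, against 10.6%. Inpp5d (SHIP1), the inositol phosphatase of blood cells, had an FPKM of 19.8 at week-0 and 6.71 at week-3, a log2 ratio of -1.56 (-1.74 to -1.39). Trib3, a pseudokinase that binds AKT, had 67 and 11 reads and a log2 ratio of -1.90 (-2.97 to -0.97). The log2 ratios of Inppl1 and Phlpp1, a lipid phosphatase and an AKT phosphatase, were -1.33 (-2.57 to -0.25) and -1.25 (-2.11 to -0.46).

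The AKT and mTOR group, by contrast, had a median of 0.08 over 16 genes, close to that of all genes. Past the limits, 2 (12.5%) were lower and 0 higher, against 15.6% and 10.6% of all genes. The 2 were Rictor, the scaffold of mTORC2, which phosphorylates AKT, with 465 and 110 reads and a log2 ratio of -1.37 (-1.68 to -1.07), and Sgk1, a kinase that also phosphorylates FoxO factors, with -1.33 (-1.70 to -0.97). Rptor, the scaffold of mTORC1, had a log2 ratio of -0.94 (-1.28 to -0.61) and Akt1s1, an inhibitor of mTORC1, 0.83 (0.62 to 1.04). The 18 regulators of FoxO proteins had a median of -0.16. Past the limits, 2 (11.1%) were higher and 0 lower, against 10.6% and 15.6% of all genes. The 2 were Skp2, a ubiquitin ligase subunit that targets FoxO1, at 1.15 (0.44 to 1.87), and Nlk, a kinase that phosphorylates FoxO factors, at 1.14 (0.57 to 1.72). Ywhab and Ywhaz, which hold phosphorylated FoxO proteins in the cytoplasm, had log2 ratios of -0.83 (-0.96 to -0.71) and -0.59 (-0.65 to -0.53). The other genes of this family in the list, named after their values were seen, did not share 1 direction. Ywhaq had -0.40 (-0.51 to -0.30), Ywhag -0.29 (-0.45 to -0.12), Ywhah -0.03 (-0.13 to 0.07) and Ywhae 0.32 (0.24 to 0.41).

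**Figure D3:**
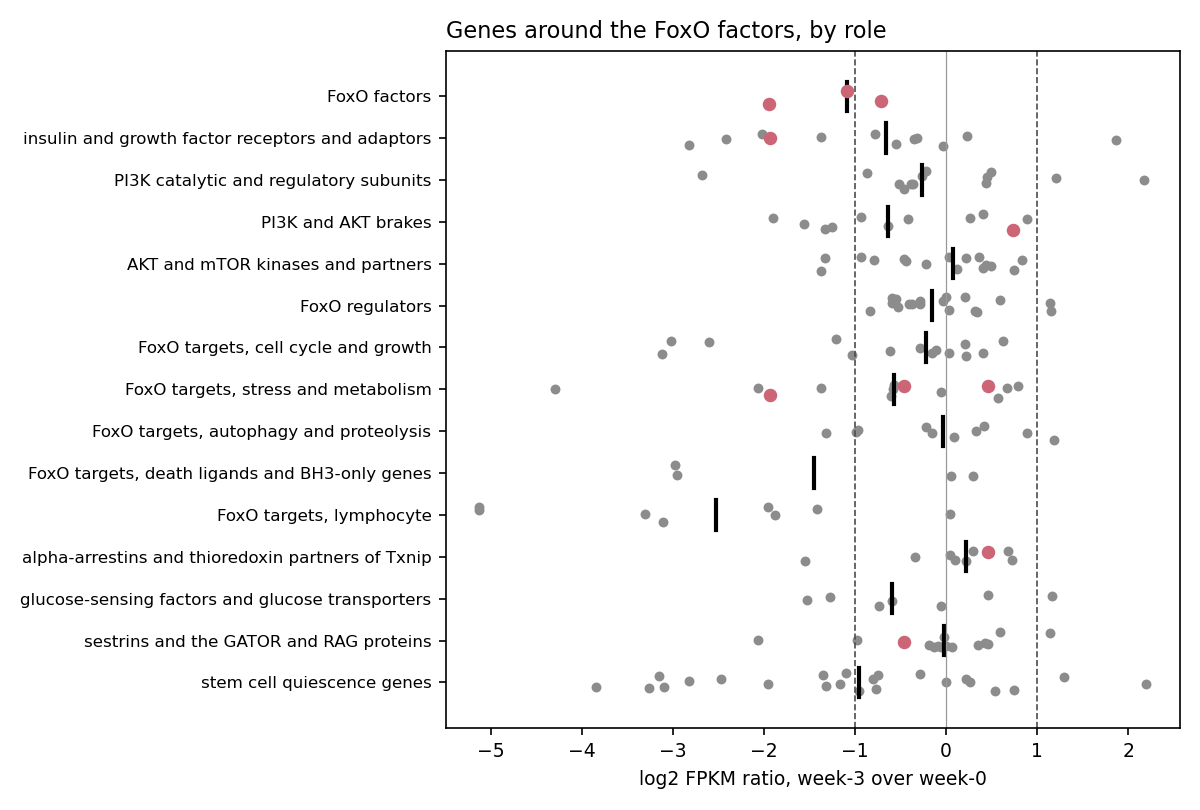
log2 FPKM ratios, week-3 over week-0, of genes with at least 20 reads in 15 lists arranged by role; each point is a gene, red points are the FoxO factors and the 4 targets, black bars are list medians and dashed lines are the ratios of 2 and 0.5. Medians ran from -2.53 in the lymphocyte targets to 0.22 in the alpha-arrestin and thioredoxin group.

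Genes described as FoxO targets in other settings were lower at week-3 more often than all genes. Over the 5 target lists, 49 genes had at least 20 reads, of which 1 (2.04%) was at or above a ratio of 2 and 19 (38.8%) were at or below 0.5, where 15.6% of all genes were, with a median log2 ratio of -0.57. Without Irs2, Txnip and Sesn3, which the lists hold, these were 1 of 46 genes (2.17%) and 18 (39.1%). The share differed between lists by role. It was 5 of 14 for cell cycle and growth, 4 of 13 for stress and metabolism, 1 of 10 for autophagy and proteolysis, 2 of 4 for death ligands and BH3-only genes and 7 of 8 for lymphocyte targets. The lists were written with earlier results of these data known, and no test was made on them.

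The cell cycle targets with the largest absolute log2 ratios were lower. Cdkn1a, the cell cycle inhibitor p21, had an FPKM of 729 at week-0 and 120 at week-3, a log2 ratio of -2.60 (-2.68 to -2.52). Gadd45b, a stress-response gene, had 165 and 19.1, a log2 ratio of -3.11 (-3.43 to -2.81). Bcl6, a transcriptional repressor, had 172 and 13 reads and a log2 ratio of -3.02 (-3.95 to -2.20), and Tob1, an antiproliferative protein, had -1.21 (-1.61 to -0.83).

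The stress and metabolism targets differed among themselves. Depp1, listed under the older symbol 8430408G22Rik, had 193 and 6 reads and a log2 ratio of -4.30 (-5.76 to -3.15). The insulin receptor Insr, which like Irs2 is under FoxO feedback, had an FPKM of 4.82 and 1.87, a log2 ratio of -1.37 (-1.75 to -1.0). The sestrins showed different ratios. Sesn2 had 123 and 18 reads and a log2 ratio of -2.06 (-2.86 to -1.34), while Sesn1 had 236 and 139 reads and a log2 ratio of -0.05 (-0.37 to 0.25), with Sesn3 between them at -0.46.

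Autophagy targets were near the whole, with a median of -0.03 over 10 genes. The kinase genes Ulk1 and Ulk2, which start autophagy, had opposite ratios, -1.32 (-1.54 to -1.10) and 1.18 (0.63 to 1.74). Map1lc3b and Gabarapl1, which coat the autophagosome, were at -0.98 (-1.07 to -0.90) and -0.97 (-1.16 to -0.79), just inside the limit. Of the death genes, the BH3-only genes Bcl2l11 (Bim) and Bbc3 (Puma) had log2 ratios of -2.97 (-3.39 to -2.58) and -2.95 (-3.35 to -2.58), with 718 and 56 reads for Bcl2l11 and 798 and 63 for Bbc3. The death ligand Tnfsf10 (TRAIL) and the adaptor Tradd had 0.29 (-0.30 to 0.88) and 0.05 (-0.21 to 0.31), with intervals that held 0.

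The lymphocyte targets had the lowest median, -2.53. Klf2, a factor that keeps lymphocytes quiescent, had an FPKM of 1025 and 119, a log2 ratio of -3.11 (-3.21 to -3.0). S1pr1, the receptor with which lymphocytes leave tissue, had 612 and 38 reads and a log2 ratio of -3.30 (-3.81 to -2.83). Ctla4, an inhibitory receptor of T cells, had 57 and 1 reads and a log2 ratio of -5.12 (-10.45 to -2.59), and Cd79a, a chain of the B cell receptor, had 114 and 2 reads and -5.12 (-8.19 to -3.24). Of the 3 B-lineage markers with at least 20 reads, 1 was lower past the limit, Cd79a itself, while Cd79b had 314 and 216 reads and a log2 ratio of 0.17 (-0.09 to 0.42), and the list median was -0.12. Of the 3 T-lineage markers with at least 20 reads, 2 were lower past the limit, Trac and Tcf7, with a median of -1.42, and Tcf7 is also one of the lymphocyte targets. Of the 5 plasma cell markers with at least 20 reads, 4 were lower past the limit, where 15.6% of all genes were. The part of these cells in the lymphocyte targets was not tested.

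Txnip and Sesn3 were also placed beside the proteins they belong with. Of the 9 alpha-arrestins and thioredoxin partners, 1 (11.1%) was lower past the limit, against 15.6% of all genes, and 0 were higher, against 10.6%. The median was 0.22. Arrdc3, an alpha-arrestin like Txnip, had 187 and 39 reads and a log2 ratio of -1.55 (-2.09 to -1.05). Arrdc1 had 0.29 (0.15 to 0.44), Arrdc2 0.68 (0.10 to 1.27) and Arrdc4 -0.34 (-0.91 to 0.21), and Arrdc5 had no reads. Txn1, the thioredoxin that Txnip binds, had an FPKM of 361 and 386, a log2 ratio of 0.10 (0.00 to 0.19), and the mitochondrial thioredoxin reductase Txnrd2 had 0.73 (0.40 to 1.06).

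The factors that switch Txnip on with glucose differed from each other. Mlx, their shared partner, had an FPKM of 5.4 and 12.1, a log2 ratio of 1.17 (0.80 to 1.53), while Mlxip (MondoA) had 10.1 and 4.19, a log2 ratio of -1.27 (-1.49 to -1.07). The glucose transporters Slc2a1 and Slc2a3 had -0.73 (-0.98 to -0.48) and -1.53 (-1.82 to -1.25). Among 15 genes of the sestrin, GATOR and RAG group, 1 (6.67%) was higher and 1 (6.67%) was lower past the limits. These shares were 10.6% and 15.6% over all genes, and the median of the group was -0.02. Sesn2 was the lower one and Mios, of the GATOR2 complex that sestrins bind, was the higher one at 1.14 (0.41 to 1.88), from 29 and 39 reads. Rragb and Rragc, GTPases that activate mTORC1, had log2 ratios of -0.97 (-1.96 to -0.08) and 0.59 (0.15 to 1.04).

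**Figure D4:**
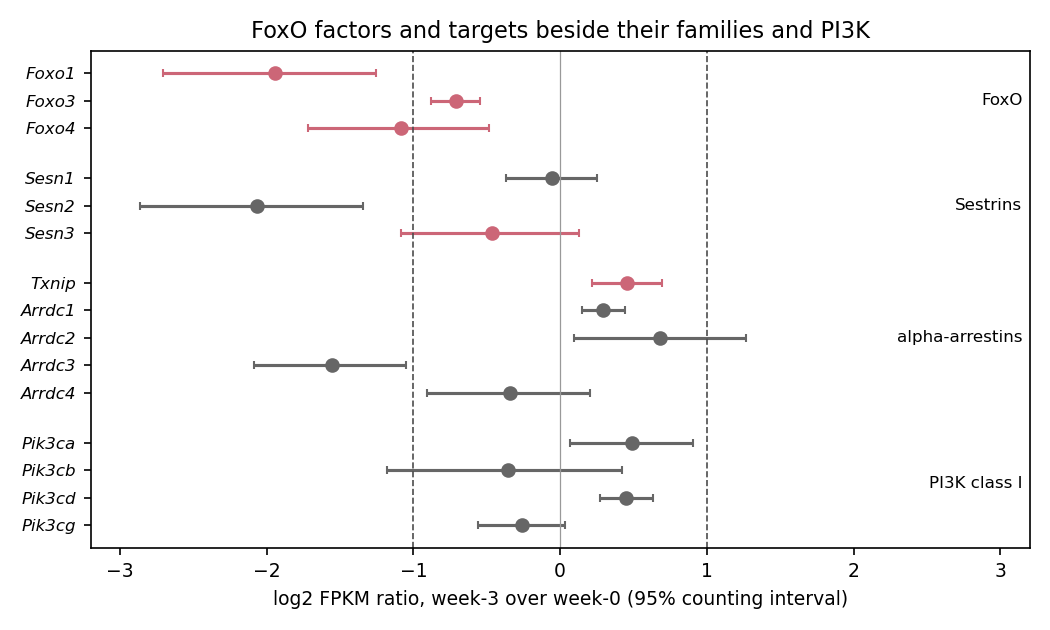
log2 FPKM ratio, week-3 over week-0, with its 95% counting interval for the FoxO factors, sestrins, alpha-arrestins and class I PI3K catalytic subunits; red marks the FoxO factors and targets chosen here, grey their relatives, and dashed lines the ratios of 2 and 0.5. Sesn2 (-2.06) and Arrdc3 (-1.55) lay below the lower line while Sesn3 and Txnip lay inside both lines.

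Genes known from quiescent stem cells were more often lower than higher. Of 23 such genes, 2 (8.70%) were higher past the limit, against 10.6% of all genes, and 11 (47.8%) were lower, against 15.6% of all genes, and the median log2 ratio was -0.96. The largest absolute log2 ratios were those of the immediate early genes Nr4a1, with an FPKM of 2043 and 142 and a log2 ratio of -3.84 (-3.92 to -3.76), and Egr1, with 869 and 97.8 and -3.15 (-3.21 to -3.10), and of the stem cell genes Fgd5, with 47 and 3 reads and -3.26 (-5.59 to -1.62), and Ndn, with 56 and 4 reads and -3.10 (-5.02 to -1.66). Immediate early genes also respond within minutes to cell handling. The part of handling in Irs2, Cdkn1a, Klf2 and the other genes that were lower at week-3 was not tested.

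Over all 15 lists, 167 of 190 genes had at least 20 reads. Past the limits, 10 of the 167 were higher and 44 lower, where 10.6% and 15.6% of all genes were. The lists hold the chosen genes, and Foxo1, Foxo4 and Irs2 are among the 44. A wider list, the 133 genes that the deposited tables annotate to FoxO signaling in KEGG, was added after values had been seen. Of its 104 genes with at least 20 reads, 5 (4.81%) were at or above a ratio of 2, against 10.6% of all genes, and 24 (23.1%) were at or below 0.5, against 15.6%, with a median of -0.28. This list also holds Foxo1, Foxo3, Foxo4 and Irs2, all but Foxo3 among the 24. The GO terms in the same tables gave medians of 0.04 for 67 genes of insulin receptor signaling and -0.35 for 54 genes of PI3K signaling. For 8 genes of negative regulation of PI3K signaling, which include Pik3ip1, the median was -0.45. It was -0.53 for 12 genes of hematopoietic stem cell proliferation and -0.04 for 5 genes of hematopoietic stem cell homeostasis.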

How the data were processed

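Both RNA-seq libraries of sorted BM LSKs were analysed, 1 per time point, each of 3 mixed mice. The authors made cDNA using a SMARTer kit for low input, sequenced paired ends of 100 bases and mapped trimmed reads to GRCm38 (mm10 in the submitters' processing notes) with TopHat2 2.0.9 at 2 mismatches. The authors deposited raw counts of whole reads per gene and FPKM, scaled by exon length and by reads on genes. The counting tool and annotation were not given in the sources used here.

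Ratios are of the deposited FPKM without a pseudocount, and their intervals come from the counts. The relative change of a pair of genes was given the exact conditional interval of the odds ratio. A ratio counted as past the limit at 2 or at 0.5 among genes with at least 20 reads over both libraries. The genes and lists were chosen with earlier results of these data known. The rule names every chosen gene, up to 4 genes per list with the largest absolute log2 ratio, and relatives or direct binding partners of the chosen genes. Of the genes so named, 1 is not reported here. Coordinates are those of the deposited tables, and lengths and antisense genes come from GENCODE M21.

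Alternatives were other scalings, pseudocounts, ratio limits and read minimums, and the exact test of edgeR 4.0.16 with a fixed biological coefficient of variation, which compares 2 libraries and not the conditions. DESeq2 1.42.0 gave median-of-ratios factors. The software was Python 3.11.15 with scipy 1.17.1, pandas 2.3.3 and numpy 2.4.6, plots by matplotlib 3.10.9, and R 4.3.3. The interval and test code was tested on simulated data.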

Additional observations from a re-analysis of the deposited data

How the results depend on the processing

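The signs of the 7 ratios held under TMM scaling (a shift of -0.08 on the log2 scale), median-of-ratios scaling (-0.07) and pseudocounts of 0.1 and 1 FPKM, and 27 of these 28 values stayed inside the counting interval. The exception was Foxo1 with a pseudocount of 1, at -1.04. With that pseudocount, 2 of the 7 genes were at or below a ratio of 0.5 in place of 3, the genes of the lists at or above 2 were 4 in place of 10, and all genes past the limits were 612 higher and 989 lower, in place of 1293 and 1903. At a ratio limit of 1.5, 1 of the 7 was higher and 4 were lower, 23 genes of the lists were higher, and 2894 of all genes were higher and 2996 lower. Asking also for q under 0.05 in the exact test of edgeR left 3 of the 7 lower at a biological coefficient of variation of 0.1 and 0 at 0.4, where 0 genes of the lists were higher and 8 lower, and 50 of all genes higher and 199 lower. Counting every gene above 0 in both libraries gave 2191 higher genes. With at least 100 reads, 6 genes of the lists were higher, and 663 of all genes were higher and 1004 lower.

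With 1 library per time point, the spread between mice is unknown, and the intervals hold counting error only. The calls of Foxo1, Foxo4 and Irs2 therefore depend on the spread assumed. With 1 library a time point, none was left out. No paired analysis was possible because each time point has 1 library. The reads of Foxo1, Foxo4 and Sesn3 at week-3, from 20 to 35, limit their precision most.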
